A study of Drosophila melanogaster with 4 samples.

Results

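The data describe H3K23ac, acetylation of lysine 23 in the tail of histone H3, across the Antennapedia and bithorax complexes, the 2 clusters of Hox genes on chromosome arm 3R of Drosophila melanogaster. Nuclei came from wild-type larvae of the strain Oregon-R in the third instar, grown without treatment, and the labels name no tissue. Chromatin immunoprecipitation and sequencing (ChIP-seq) gave 2 H3K23ac libraries (replicates 1 and 2), each with an input library of the same chromatin without precipitation. The authors deposited 3 lists of enriched regions, here called clusters (replicate 1, replicate 2 and the replicate set of both), in coordinates of FlyBase release 5. Members were the clusters on 3R that overlapped 2.48 to 2.83 Mb (Antennapedia complex: lab, pb, Dfd, Scr and Antp) or 12.48 to 12.82 Mb (bithorax complex: Ubx, abd-A and Abd-B). There were 88 of 6267 clusters in replicate 1, 127 of 11757 in replicate 2 and 162 of 17999 in the replicate set, or 377 of 36023 in all 3 lists. Replicate 2 held more clusters than replicate 1 on the rest of 3R as well (3041 and 1650), the depth of the libraries is unknown, and its part in this difference was not tested.

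Hox genes encode homeodomain transcription factors that give each segment its identity, and their order on the chromosome follows the order of the segments they specify. lab, pb, Dfd and Scr act in the head and first thoracic segment, Antp in the thorax, Ubx at the border of thorax and abdomen, and abd-A and Abd-B in the abdomen. Large regulatory regions, among them bxd and the iab regions of the bithorax complex, set where each gene is on, and Polycomb and Trithorax group proteins keep it off or on through development. Open, active chromatin is generally rich in acetylated histone tails, and in flies the acetyltransferase Enok is known to acetylate H3K23. In nuclei from many segments and tissues, a mark on a few cells and a weak mark on many cannot be told apart.

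In the RefSeq gene table of release 6, used here for names and order, the 8 Hox genes lie on 3R in the order lab, pb, Dfd, Scr, Antp, Ubx, abd-A and Abd-B. From lab to Antp it lists 43 genes, of which 19 code for proteins. Apart from Hox genes these include Edg84A and a run of Ccp84A cuticle protein genes between lab and pb, the relatives zen, zen2, bcd and ftz, which act in the early embryo, and Ama. From Ubx to Abd-B the table lists 16 genes, 6 of them coding for proteins, besides non-coding RNAs such as bxd and the miRNAs mir-iab-4 and mir-iab-8. The low end of each window is accordingly called the lab end or the Ubx end, and the high end the Antp end or the Abd-B end. Which cluster lies in which gene was not analysed here, since that table and the lists use different releases.

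Both Hox complexes were dense in H3K23ac clusters. Clusters covered 24.7% of the Antennapedia complex in replicate 1 and 42.3% in replicate 2, a mean of 33.5 ± 12.5% (SD, n = 2). In the bithorax complex they covered 21.5% and 42.2%, a mean of 31.8 ± 14.7% (SD, n = 2). The rest of 3R was covered to 12.2% in replicate 1 and 28.9% in replicate 2. The complexes were thus above the rest of 3R in each replicate, by 2.02-fold and 1.46-fold for the Antennapedia complex (mean 1.74 ± 0.393, SD, n = 2) and by 1.75-fold and 1.46-fold for the bithorax complex (mean 1.61 ± 0.210, SD, n = 2). With 2 replicates of 1 condition no test across replicates was possible, and the comparisons that follow are descriptions.

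In the 2 replicates the number of clusters stood out more than the sequence they covered. The Antennapedia complex held 47 clusters in replicate 1 and 64 in replicate 2, or 13.4 and 18.3 per 100 kb. The bithorax complex held 41 and 63, or 12.1 and 18.5 per 100 kb, and the rest of 3R had 6.06 and 11.2 per 100 kb. For comparison, 3R was divided into windows of the length of each complex, 76 for the Antennapedia and 78 for the bithorax complex, none of which met a complex. In replicate 1 a single window held more clusters than each complex, with 48 against the 47 of the Antennapedia complex and 44 against the 41 of the bithorax complex. In replicate 2 no window did, the highest having 61 and 62. By covered sequence 3 of 76 windows were higher than the Antennapedia complex in replicate 1 and 11 of 76 in replicate 2. For the bithorax complex 8 and 9 of 78 windows were higher. The median window was covered to 10.7% in replicate 1 in both comparisons, and to 27.7% and 27.9% in replicate 2. Windows of 3R are parts of the same libraries and not replicates, and their edges, unlike those of the complexes, were not set by genes.

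**Figure D1:**
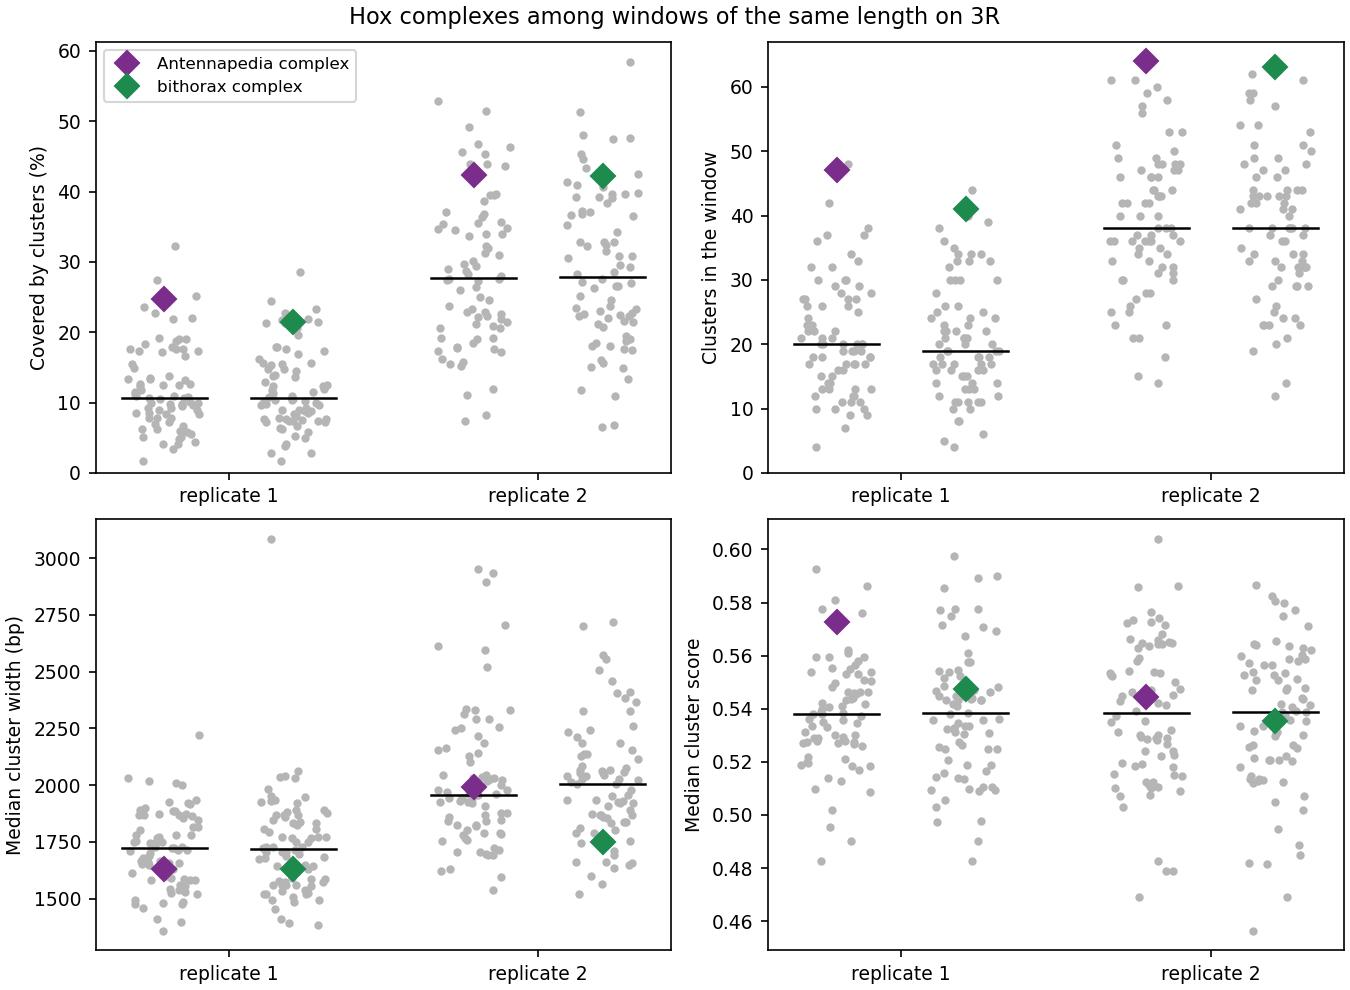
The 4 panels show, for replicates 1 and 2, the covered share (%), the number of clusters, the median cluster width (bp) and the median cluster score (no unit) in windows of the length of each complex on 3R (grey points, with black bars for their medians) and in the complexes (diamonds). The diamonds lie near or above the highest points for the number of clusters (47 and 41 in replicate 1, 64 and 63 in replicate 2) and among the grey points for width and score.

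Clusters of the Hox complexes were of ordinary or smaller width in the replicates. Median widths in the Antennapedia complex were 1630 bp in replicate 1 and 1990.5 bp in replicate 2, against 1709 and 1986 bp on the rest of 3R. In the bithorax complex they were 1632 and 1748 bp, so that these clusters were narrower than the rest by 77 bp in replicate 1 and by 238 bp in replicate 2. The mean difference from the rest was -157.5 ± 113.8 bp for the bithorax and -37.2 ± 59.04 bp for the Antennapedia complex (SD, n = 2), and the latter lay within its SD. Of the 78 windows, 67 had a greater median width than the bithorax complex in replicate 2 and 51 in replicate 1.

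Wide clusters were few in replicate 1. Clusters of at least 3000 bp numbered 2 of 47 in the Antennapedia complex (4.26%, exact binomial interval 0.520 to 14.5) and 1 of 41 in the bithorax complex (2.44%, interval 0.0617 to 12.9), against 180 of 1650 on the rest of 3R (10.9%, interval 9.45 to 12.5). In replicate 2 they were 15 of 64 (23.4%, interval 13.8 to 35.7) and 9 of 63 (14.3%, interval 6.75 to 25.4), against 725 of 3041 (23.8%, interval 22.3 to 25.4). The intervals of both complexes overlapped those of the rest in replicate 1, and in replicate 2 as well. Such 95% intervals cover counting error only.

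Clusters under 2000 bp covered more of the complexes than of the rest of 3R in each replicate. In replicate 1 these covered 14.0% of the Antennapedia and 15.2% of the bithorax complex and 6.37% of the rest of 3R, and no window of 3R reached either complex. In replicate 2 they covered 14.5% and 17.8% against 8.99%, with 2 of 76 windows higher than the Antennapedia complex and none of 78 higher than the bithorax complex. For clusters of at least 2000 bp the bithorax complex was close to the rest of 3R, at 6.21% against 5.86% in replicate 1 and 24.4% against 19.9% in replicate 2, with 31 and 26 of 78 windows higher. The Antennapedia complex was covered by such clusters to 10.7% and 27.8%, and 11 and 14 of 76 windows were higher. Over the rest of 3R, the bithorax complex had 8.87 points more coverage by clusters under 2000 bp and 0.353 by the wider ones in replicate 1, and 8.83 and 4.43 in replicate 2. The Antennapedia complex had 7.65 and 4.81 points more in replicate 1 but 5.51 and 7.88 in replicate 2, so there the wider clusters held the greater share. In the replicate set the wider clusters held most of the excess in the Antennapedia and all of it in the bithorax complex, covering 59.8% and 60.3% against 34.5%, while those under 2000 bp covered 15.4% and 11.6% against 11.8%.

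Scores were close to those of the rest of the arm. The authors' score per cluster, taken here to be a log2 ratio up to a scaling constant, had a median of 0.573 in the Antennapedia complex in replicate 1 and 0.544 in replicate 2, or 1.49 and 1.46 as ratios under that reading. In the bithorax complex the medians were 0.547 and 0.535, with ratios of 1.46 and 1.45, and on the rest of 3R 0.537 and 0.536. The mean difference from the rest was 0.0217 ± 0.0195 for the Antennapedia and 0.0046 ± 0.0081 for the bithorax complex (SD, n = 2). Among the windows of 3R 5 of 76 had a higher median score than the Antennapedia complex in replicate 1, but 33 of 76 in replicate 2. For the bithorax complex 23 and 43 of 78 were higher. Members ranged from 0.406 to 0.751 in replicate 1 and from 0.266 to 0.748 in replicate 2.

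In the Antennapedia complex clusters were present from the lab end to the Antp end, with the least coverage around 50 to 90 kb from the lab end. The window was divided into 3 equal stretches of 116.7 kb, named for the lab end, the middle and the Antp end. Replicate 1 had 12, 20 and 15 clusters in these, which covered 19.5%, 32.8% and 21.7% of them. Replicate 2 had 18, 21 and 24 clusters, covering 34.8%, 42.4% and 49.8%. The lab-end stretch was the least covered in each replicate, whereas the replicates differed on which was the most covered. The first clusters of the window lay at 2488062 to 2490244 in replicate 1 and at 2487323 to 2488975 in replicate 2, and 5 more clusters of replicate 1 followed within the first 25 kb. In replicate 2 the last cluster, at 2829893 to 2831597, crossed the end of the window and had the lowest score of the complex (0.266), while the last of replicate 1 lay at 2819026 to 2820444.

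The cluster that starts near 2689 kb was among the 3 highest scores of the Antennapedia complex in all 3 lists. It lay at 2689248 to 2691559 in replicate 1 (2312 bp, score 0.666), at 2689048 to 2692277 in replicate 2 (3230 bp, score 0.726) and at 2688922 to 2692344 in the replicate set (3423 bp, score 0.584). Replicate 2 covered 100% of the cluster of replicate 1. The other high scores of replicate 1 were at 2520859 to 2522643 (0.675) and 2649547 to 2651687 (0.671), and those of replicate 2 at 2740588 to 2745065 (0.748) and 2665585 to 2668355 (0.734). By score the best of replicate 1 was 56th of the 1738 clusters on 3R and the best of replicate 2 was 120th of 3168. In replicate 1, 27 of 47 clusters of the complex scored at or above the median of the list (57.4%, exact interval 42.2 to 71.7), against 43.8% on the rest of 3R. In replicate 2 it was 30 of 64 (46.9%, interval 34.3 to 59.8) against 44.8%.

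The widest clusters of the Antennapedia complex differed between the replicates. In replicate 1 they lay at 2595331 to 2598683 (3353 bp), 2639170 to 2642306 (3137 bp) and 2745026 to 2748011 (2986 bp). In replicate 2 they lay at 2780510 to 2785609 (5100 bp), 2729169 to 2733692 (4524 bp) and 2740588 to 2745065 (4478 bp), all in the Antp-end stretch. Replicate 2 covered 96.8% of the widest cluster of replicate 1, whereas replicate 1 covered 32.3% of the widest of replicate 2.

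In the bithorax complex clusters likewise ran from the Ubx end to the Abd-B end. Of its 3 equal stretches of 113.3 kb, taken from the Ubx end, the middle and the Abd-B end, replicate 1 had 14, 11 and 16 clusters, covering 21.2%, 18.8% and 24.4%. Replicate 2 had 22, 20 and 21, covering 47.0%, 44.3% and 35.2%. The replicates thus ordered the stretches differently, with the Abd-B end highest in replicate 1 and lowest in replicate 2. The first clusters of the complex nearly coincided, at 12484923 to 12486286 in replicate 1 and 12484949 to 12486552 in replicate 2. The last lay at 12804813 to 12806336 in replicate 1 and at 12818352 to 12820046 in replicate 2.

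The widest cluster of the bithorax complex in replicate 1 was part of a broad region of replicate 2. It spanned 12611656 to 12615738 (4083 bp, score 0.575) and lay wholly within a cluster of replicate 2 at 12608987 to 12617084 (8098 bp, score 0.685). Next in width in replicate 1 were 12715938 to 12718803 (2866 bp) and 12672644 to 12675301 (2658 bp). The widest cluster of replicate 2, at 12487057 to 12495605 near the Ubx end (8549 bp, score 0.664), had no counterpart in replicate 1, and the third in width, at 12647024 to 12653914 (6891 bp), was covered by replicate 1 to 19.8%. The 2 wider of these ranked 50th and 66th in width among the 3168 clusters of replicate 2 on 3R.

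The highest score among the members in replicate 1 was in the bithorax complex. This cluster, at 12558081 to 12559686 (1606 bp, score 0.751), was 7th of 1738 on 3R, and replicate 2 covered 94.9% of it. It was followed by 12736655 to 12738490 (0.697) and 12672644 to 12675301 (0.658). In replicate 2 the highest scores were at 12519171 to 12521702 (0.727), 12730662 to 12734231 (0.702) and 12634580 to 12636891 (0.700), of which the first met no cluster of replicate 1. No cluster was among the 3 highest scores in both replicates of this complex.

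**Figure D2:**
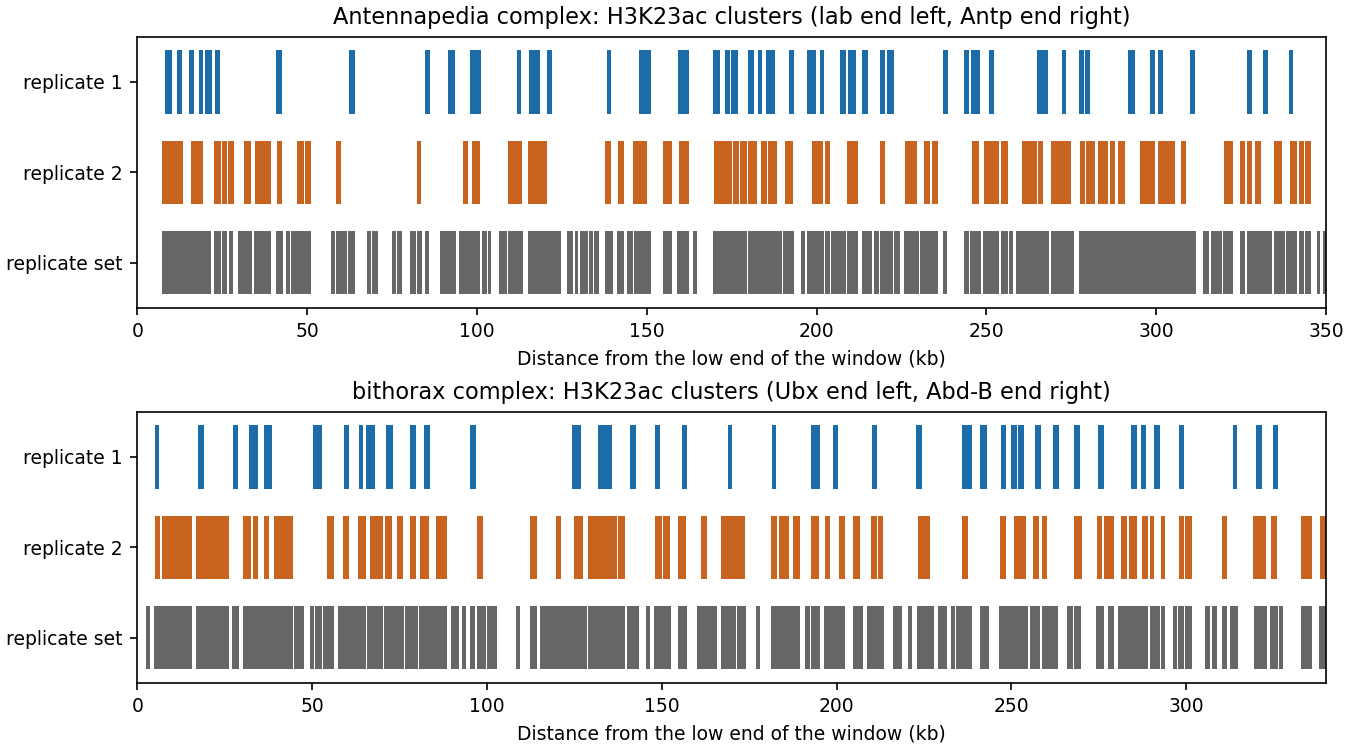
Each box is an H3K23ac cluster, drawn to scale by its distance (kb) from the low end of the window, in replicate 1, replicate 2 and the replicate set, for the Antennapedia complex (above, 47, 64 and 84 clusters) and the bithorax complex (below, 41, 63 and 78). Clusters less than about 1 kb apart merge in print. Clusters run along both complexes, and the longest stretch with none in either replicate is from 64.2 to 82.3 kb in the Antennapedia complex and from 98.9 to 112.4 kb in the bithorax complex.

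Counted in bins of 10 kb, few parts of the complexes were free of clusters. In replicate 1, 32 of the 35 bins of the Antennapedia complex and 29 of the 34 of the bithorax complex held at least 1 bp of a cluster (91.4%, exact interval 76.9 to 98.2, and 85.3%, interval 68.9 to 95.05), where 48.2% of the 2790 bins of 3R did. In replicate 2, 34 of 35 and 33 of 34 did (97.1%, interval 85.1 to 99.9, and 97.1%, interval 84.7 to 99.9), against 75.2% on 3R. Both replicates had a cluster in 32 of 35 and 29 of 34 bins, against 45.3% on 3R. At least 1 replicate had one in 34 of 35 and 33 of 34 bins, against 78.2% on 3R. The single bin left in each complex held no cluster in either replicate, as did 21.8% of the bins of 3R. In the replicate set clusters were found in all 35 and all 34 bins, and in 90.6% of the bins of 3R. These shares were therefore above the background in each list, least so in the set, where the background was already high. Bins of a library are not replicates, and neighbouring bins can share a cluster. The intervals treat bins as independent, so they are descriptions and no test against 3R. The share of occupied bins also tends to rise with the number of clusters, so it is not separate from that number.

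Densely covered bins were less frequent than occupied ones. Bins covered to at least 50% numbered 2 of 35 and 0 of 34 in replicate 1, or 5.71% and 0%, and 4.74% of the 2719 bins on the rest of 3R. In replicate 2 they were 14 of 35 (40.0%) and 10 of 34 (29.4%), against 22.5%. In replicate 1 the most covered bins of the Antennapedia complex were those from 180 to 190 kb (55.6%) and from 170 to 180 kb (53.05%), which replicate 2 covered to 66.8% and 88.6%. The most covered bin of the bithorax complex in replicate 2, from 130 to 140 kb, reached 91.3% there and 40.8% in replicate 1. Replicate 1 covered the bin from 250 to 260 kb most, to 49.8%, and replicate 2 covered it to 63.2%.

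**Figure D3:**
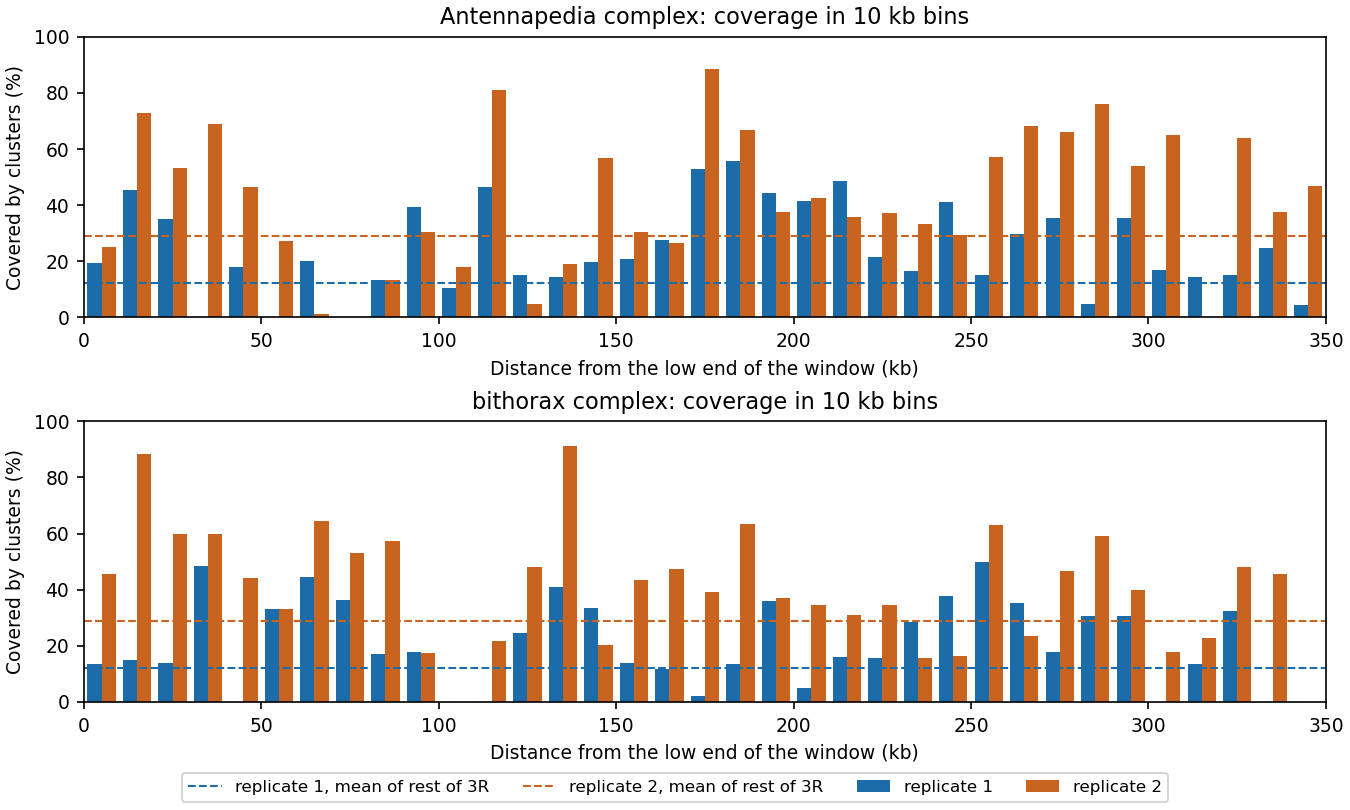
Bars give the share of each 10 kb bin covered by clusters (%) in replicate 1 (blue) and replicate 2 (orange) against the distance (kb) from the low end of the Antennapedia (above) and bithorax (below) complex, and dashed lines the coverage of the rest of 3R (12.2% and 28.9%). Most bins hold a bar of each replicate, and the bins from 70 to 80 kb of the Antennapedia and from 100 to 110 kb of the bithorax complex hold none.

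Stretches without a cluster were short in both complexes compared with windows of 3R. A window with more clusters tends to have shorter stretches, so this is not separate from the number of clusters given above. In replicate 1 the longest was 20.6 kb in the Antennapedia and 27.5 kb in the bithorax complex, shorter than the longest in each of the 76 and 78 windows of 3R (29.9 to 249.9 kb and 29.1 to 249.9 kb). In replicate 2 it was 22.2 kb in the Antennapedia complex, where 12 of 76 windows had a shorter one, and 13.5 kb in the bithorax complex, where 1 of 78 did. In the replicate set it was 7.32 and 5.50 kb, with 1 of 76 and 0 of 78 windows shorter. The median over windows was 80.6 and 79.5 kb in replicate 1 and 37.6 and 36.8 kb in replicate 2. The median distance between neighbouring clusters was 3527 bp and 4953.5 bp in replicate 1 (5371 bp over 3R) and 1793 and 1880 bp in replicate 2 (2615 bp over 3R).

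The cluster-free stretches of the replicates coincided in part. Taking both replicates together, the longest stretch of the Antennapedia complex was 18.1 kb at 2544203 to 2562304, and that of the bithorax complex was 13.5 kb at 12578946 to 12592401. They ranked 227th and 351st in length among the 3344 such stretches of 3R. The replicate set had clusters over 41.6% and 32.8% of them, so they were not free of calls in that list.

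**Figure D4:**
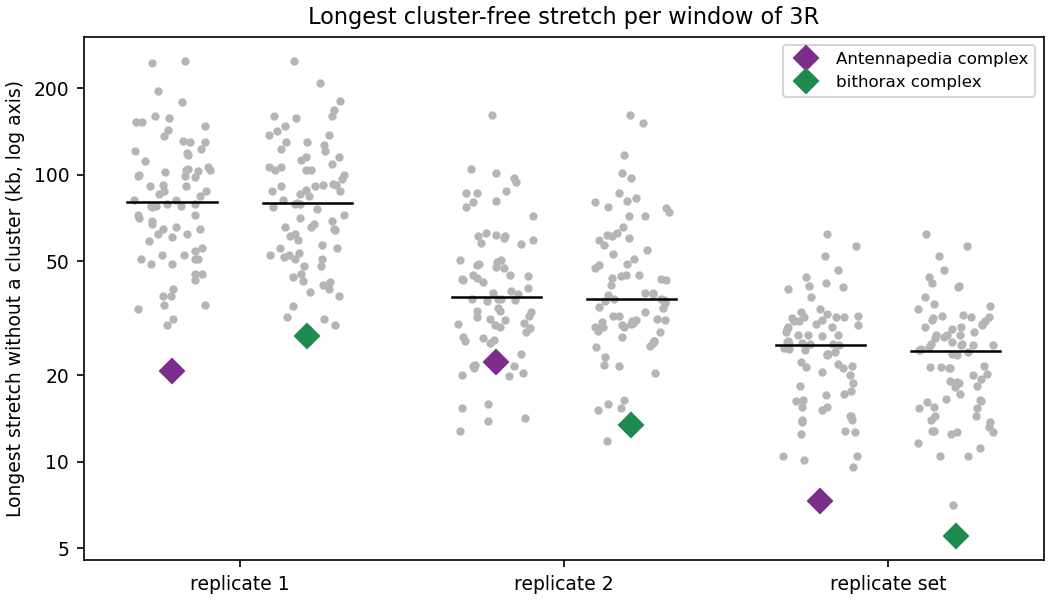
Each point is the longest stretch without a cluster (kb, log axis) in a window of 3R of the length of a complex, black bars are medians over windows and diamonds are the complexes, for replicate 1, replicate 2 and the replicate set. The diamonds lie below the grey points in replicate 1 (20.6 and 27.5 kb) and within their lower range in replicate 2 (22.2 and 13.5 kb), and at the low end in the replicate set (7.32 and 5.50 kb).

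Many clusters of the Hox complexes were called in both replicates, as was also so on the rest of 3R. Of the 47 clusters of replicate 1 in the Antennapedia complex, 34 shared at least 1 bp with replicate 2 (72.3%, exact interval 57.4 to 84.4), and of 41 in the bithorax complex 33 did (80.5%, interval 65.1 to 91.2). On the rest of 3R it was 1375 of 1650 (83.3%, interval 81.4 to 85.1), and 59 of 76 and 52 of 78 windows had a higher share than the complex. In the other direction 34 of 64 (53.1%, interval 40.2 to 65.7) and 33 of 63 (52.4%, interval 39.4 to 65.1) clusters of replicate 2 overlapped replicate 1, against 1254 of 3041 on the rest (41.2%, interval 39.5 to 43.01). By this share 9 of 76 and 11 of 78 windows were higher. Jaccard indices (shared over joint bp) were 0.290 and 0.287 in the complexes and 0.289 on the rest of 3R. The index that random placement would give rises with coverage, which was higher in the complexes. Similar indices therefore do not show similar agreement. Shared sequence came to 52.7 and 48.2 kb. It made up 61.1% and 66.1% of what replicate 1 covered, against 75.5% on the rest of 3R, and 35.6% and 33.6% of what replicate 2 covered, against 31.9%. Set against the product of the replicates' coverages it was 1.44 and 1.57 times as much in the complexes and 2.61 times on the rest of 3R. The highest value this ratio can take falls as coverage rises. Replicate 2 covered 42.3% and 42.2% of the complexes but 28.9% of the rest, so the ratios cannot be compared directly.

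Agreement in the amount of coverage per bin was weak within the complexes. Coverage in 10 kb bins had a Spearman's rho between replicates of 0.377 (Pearson's r 0.381) over the 35 bins of the Antennapedia complex and 0.284 (r 0.311) over the 34 of the bithorax complex. Over 2719 bins of the rest of 3R rho was 0.637 and r 0.667. These bins share the 2 libraries, and neighbouring bins can share a cluster. Replicate 1 covered the median bin to 20.1% and 17.4% in the complexes but to 0% on the rest of 3R. The coefficients of the rest thus take in many bins without a replicate 1 cluster, of which the complexes had few. They are therefore not directly comparable with those of the complexes. With the better-scored 50% of each list 12 of 27 clusters of replicate 1 in the Antennapedia complex (44.4%, exact interval 25.5 to 64.7) and 7 of 20 in the bithorax complex (35.0%, interval 15.4 to 59.2) met replicate 2, against 442 of 723 on the rest (61.1%, interval 57.5 to 64.7).

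Shared clusters of replicate 2 were wider than those it alone held in the complexes. In the Antennapedia complex 34 shared clusters had a median width of 2424.5 bp and 30 others one of 1751.5 bp, and in the bithorax complex 2049 bp for 33 and 1674.5 bp for 30. The rest of 3R had the same order in replicate 2, at 2622.5 against 1742 bp. In replicate 1 the order was the opposite, with 1581 bp for 34 shared and 1904 bp for 13 others in the Antennapedia complex, and 1613 bp for 33 and 1780.5 bp for 8 others in the bithorax complex. On the rest of 3R shared clusters of replicate 1 were the wider ones, at 1771 against 1481 bp. This difference of direction rests on 13 and 8 clusters and was not tested.

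In the replicate set clusters covered most of both complexes. The Antennapedia complex had 84 clusters over 263.3 kb, or 75.2% of its length, and the bithorax complex 78 over 244.4 kb, or 71.9%, against 46.3% of the rest of 3R. No window of 3R was covered more than the Antennapedia complex (highest 70.8%), and 2 of 78 were covered more than the bithorax complex (highest 76.05%). By number of clusters 1 of 76 windows was higher than the Antennapedia and 0 of 78 higher than the bithorax complex. Relative to the rest of 3R, coverage was 1.62-fold and 1.55-fold. Clusters per 100 kb were 1.49-fold and 1.43-fold, so unlike in the replicates coverage exceeded the rest by more than number did. Bins of 10 kb covered to at least 50% made up 31 of 35 and 29 of 34, or 88.6% and 85.3%, and 45.5% on the rest of 3R. Median scores were 0.385 and 0.400 against 0.378, with 22 of 76 windows higher than the Antennapedia and 8 of 78 higher than the bithorax complex. Of its clusters 47 of 78 in the bithorax complex scored at or above the median of the list (60.3%, exact interval 48.5 to 71.2), as did 42 of 84 in the Antennapedia complex (50.0%, interval 38.9 to 61.1) and 44.4% (interval 42.9 to 45.9) on the rest of 3R. Median widths were 2237 and 2508 bp against 1971 bp, so that in this list both medians were above that of the rest.

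The widest clusters of the set took in several clusters of the replicates. Its widest member, at 2759188 to 2780350 in the Antp-end stretch of the Antennapedia complex, spanned 21163 bp and was the 10th widest of 4533 on 3R. It took in 3 clusters of replicate 1 and 5 of replicate 2, which covered 22.7% and 63.8% of it. Next in this complex were 2659724 to 2669890 (10167 bp) and 2738660 to 2748592 (9933 bp). In the bithorax complex the widest were 12484752 to 12495718 (10967 bp) and 12496776 to 12506252 (9477 bp) at the Ubx end and, between them in width, 12608772 to 12619630 (10859 bp). The last of these also had the highest score of the set in that complex (0.550), followed by 12634544 to 12637182 (0.542) and 12729810 to 12734868 (0.534). In the Antennapedia complex 2638796 to 2642562 (0.533) and 2575994 to 2581010 (0.532) followed the cluster at 2688922.

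The share of the set's clusters with a counterpart in both replicates was higher in the Hox complexes than elsewhere on 3R, a difference that was not tested. In the Antennapedia complex 27 of 84 (32.1%) overlapped clusters of both replicates and 25 (29.8%) of neither, and in the bithorax complex 31 of 78 (39.7%) and 21 (26.9%). On the rest of 3R it was 1037 of 4371 (23.7%) and 1607 (36.8%). Replicate 1 covered 24.7% and 21.5% of the complexes but 12.2% of the rest. Clusters of the set also had greater median widths in the complexes (2237 and 2508 bp against 1971 bp). Both make an overlap more likely, so these shares cannot be compared directly as agreement between the replicates. Those found in neither replicate had median widths of 1357 and 1185 bp, and those found in both 4599 and 4765 bp. The set is built from the same libraries, so it is no independent check of them.

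The Antennapedia and bithorax complexes were close to each other in coverage. Coverage of the Antennapedia complex exceeded that of the bithorax complex by 3.23 percentage points in replicate 1 and by 0.134 in replicate 2, a mean of 1.68 ± 2.19 (SD, n = 2), which lay within the SD. Clusters per 100 kb differed by 1.37 and -0.244, a mean of 0.563 ± 1.14 (SD, n = 2). Median width differed by -2 and 242.5 bp (mean 120.2 ± 172.9, SD, n = 2). Median score was higher in the Antennapedia complex by 0.0252 and 0.0089, a mean of 0.0171 ± 0.0115 (SD, n = 2), which exceeded its SD, but in the replicate set it was lower, by -0.0149. With 2 replicates, which differed in coverage of a complex by up to 1.97-fold, small differences between the complexes could not be shown.

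Coverage changed at some borders of the complexes and not at others, and this depended on the length of flank taken. In the 50 kb below the lab end clusters covered 8.69% in replicate 1 and 16.8% in replicate 2, less than in the complex. In the 50 kb beyond the Antp end they covered 24.2% and 47.2%, about as much as in the complex. Below the Ubx end the values were 8.58% and 35.5%, and beyond the Abd-B end 20.1% and 48.8%. These flanks held only 2 to 7 clusters in replicate 1 and 5 to 12 in replicate 2. Over 100 kb coverage fell to 16.8% and 30.5% beyond the Antp end and to 16.0% and 29.8% beyond the Abd-B end, below the complexes. Over 100 kb on the low side it was 5.69% and 13.7% for the Antennapedia and 8.85% and 37.3% for the bithorax complex. Over flanks as long as the complexes, coverage on the low and the high side was 4.10% and 12.6% in replicate 1 and 19.2% and 25.1% in replicate 2 for the Antennapedia complex. For the bithorax complex it was 21.3% and 12.4% in replicate 1 and 45.3% and 23.8% in replicate 2. The stretch below Ubx was therefore covered about as much as the bithorax complex itself, and the other 3 flanks of that length less than the complex they bordered, in both replicates.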

How the data were processed

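ChIP-seq of H3K23ac and input was done on 4 libraries, grouped by title into 2 ChIP replicates and 2 inputs. The submitters' processing notes name Bowtie 0.12.7. Per the file headers, the authors' lists give significantly enriched regions in coordinates of FlyBase release 5. Peak caller, threshold, filters and the making of the set were not given in sources used here, and the number of clusters may depend on depth, which is unknown. No list of the inputs was used here. The labels do not say whether the replicates are separate animals, so their spread may be technical.

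The deposited score of the authors has no stated scale. Taking 2 to the power of the score gave, within 1e-11 of the value, a fixed constant multiplied by a fraction of whole numbers (denominators to 2000) for 88 of 88 members in replicate 1, 127 of 127 in replicate 2 and 157 of 162 in the set, and for 0 after a small random shift. In lowest terms the median numerator and denominator were 290 and 106, 396 and 151, and 620 and 267. They are lower bounds on the numbers divided only if the constant is the true one. It was chosen from the scores themselves and is fixed only up to a ratio of whole numbers.

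Coordinates are 1-based. Covered sequence is the union of clusters clipped to a window. Windows of 3R were laid end to end outwards from each complex, and medians needed at least 3 clusters. A cluster-free stretch in a window was counted up to its edges. Overlap meant at least 1 bp. Intervals are exact binomial (Clopper-Pearson). Python 3.11.15, numpy 2.4.6 and scipy 1.17.1 were used, and overlap and coverage were tested on simulated data. The members and choices of analysis were made with earlier results of these data known. Named clusters are the 3 widest, the 3 highest scoring and the first and last of each complex and list. The rule also names clusters overlapping the other replicate, which are given as counts and on the map. Others, and bins, were chosen after their values were seen. Alternatives are given under the closing section.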

Additional observations from a re-analysis of the deposited data

How the results depend on the processing

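No paired analysis was possible because no list of the inputs was used here, and the 2 ChIP replicates form 1 group. Coverage relative to the rest of 3R stayed above 1 in 14 of 14 values, each alternative counting once per complex. The values without 1 replicate only repeat those of the other replicate, already above 1, so they add nothing to this count. Of 61 values under alternatives that kept both replicates, 40 moved by less than the SD of the replicates or stayed inside the exact interval. With 2 replicates, leaving one out moves a mean by less than the SD by construction. Without one replicate or the other, coverage ran from 24.7 to 42.3% in the Antennapedia and from 21.5 to 42.2% in the bithorax complex, relative coverage from 1.46 to 2.02 and from 1.46 to 1.75, lower windows from 85.5 to 96.1% and from 88.5 to 89.7%, occupied bins relative to 3R from 1.29 to 1.90 and from 1.29 to 1.77, and the difference of the complexes from 0.134 to 3.23 points. The better-scored 50% of each list gave 19.5% coverage of the Antennapedia and 18.1% of the bithorax complex (33.5% and 31.8% in the main analysis). The fall in the bithorax complex lay within the SD of the replicates, which was wide (14.7). This setting put 85.3% of windows below the bithorax complex (mean of the replicates, 89.1% in the main analysis). Replicate 1 clusters found again were 44.4% and 35.0%. Clusters of at least 2000 bp gave coverages of 19.2% and 15.3%, a relative coverage of the bithorax complex of 1.14 in place of 1.61, 63.5% of windows below it and a difference of 3.95 points, since narrow clusters were left out. Windows narrowed or widened by 20 kb at each end, or laid from position 1, put 87.9%, 85.5% and 90.4% of windows below the bithorax complex. A reciprocal overlap of at least 50% left 38.3% and 56.1% of replicate 1 clusters found again. In alternatives chosen after seeing the data, replicate 2 cut to its best-scored clusters at the length of replicate 1 gave 38.3% and 48.8% found again (54.7% on the rest of 3R) and 84.0% of windows below the bithorax complex, as well as median scores of 0.586 and 0.571 and a median width of 1867 bp in the bithorax complex (1690 in the main analysis), and windows of all 5 major arms gave 90.3%. The causes of the other movements were not tested. Depth is unknown, and 2 replicates limit any difference between the complexes.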

Other observations

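Some windows of 3R were covered more than a complex in both replicates, by clusters that were fewer or wider. Against the Antennapedia complex these were 3 of 76 windows. The window from 6330011 to 6680011 was covered to 32.3% in replicate 1 and 51.5% in replicate 2, with 48 clusters in each and median widths of 1884 and 2896.5 bp. The window from 3880004 to 4230004 was covered to 27.4% and 43.6%, with 42 and 47 clusters. That from 11930027 to 12280027, below the bithorax complex, was covered to 25.1% and 45.6%, with 38 and 61 clusters. In the replicate set these windows were covered to 69.01%, 59.3% and 64.3%, below the 75.2% of the Antennapedia complex. Against the bithorax complex 4 of 78 windows were higher in both replicates. The one nearest the end of 3R, from 25740039 to 26080039, was covered to 21.7% and 51.4%, with 35 and 62 clusters.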
